A study of Mus musculus with 8 samples.

Results

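The question addressed here was whether loss of Pggt1b acts differently on the chromatin of 2 subsets of mouse regulatory T (Treg) cells. It was answered with 1 contrast, the interaction of genotype and subset. At each site the log2 fold change between Pggt1b-deficient and wild type (WT) cTreg cells was subtracted from the log2 fold change between Pggt1b-deficient and WT eTreg cells. The same number is the eTreg against cTreg difference in Pggt1b-deficient cells minus that difference in WT cells. A site is called higher where the value was positive and lower where it was negative. All 8 libraries of the series and all 79758 sites of its count table belong to the contrast, and 75352 sites had enough counts to be tested.

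Treg cells restrain immune responses. Central Treg (cTreg) cells resemble resting T cells that recirculate through lymphoid organs, and effector Treg (eTreg) cells are their activated counterparts. As a Treg cell takes on the effector state, some regulatory elements of its chromatin open and others close. The product of Pggt1b is the catalytic subunit of the enzyme GGTase-I, which attaches a lipid to signalling proteins and thereby anchors them to membranes, where they relay receptor signals. An ATAC-seq library counts the cuts that a transposase makes in open DNA, so a site with many counts is an accessible one.

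Each of the 4 groups held 2 libraries of Treg cells sorted from spleen and lymph nodes of mixed bone marrow chimeras: WT cTreg, WT eTreg, Pggt1b-deficient cTreg and Pggt1b-deficient eTreg cells. In such chimeras, hosts carry marrow of more than 1 donor. The labels name the deficient groups Pggt1bKO. The sources used here do not say how or in which cells Pggt1b was deleted, which sort gates were used, how old the mice were or whether the groups shared hosts. Whether replicate libraries are separate animals is also not said, so the spread behind each p-value is that of these libraries and may be technical.

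Depth was unequal. Totals ran from 7153991 to 14974253 counts in 6 libraries, but were 2255214 and 1664702 in the Pggt1b-deficient eTreg libraries, where the median count per tested site was 8 and 6, against 29 to 59 elsewhere. The common dispersion within a group, a measure of the spread between its libraries, was 0.0438 in Pggt1b-deficient eTreg cells and 0.00723 to 0.0111 in the other groups. Lower depth and larger spread therefore coincide with 1 of the 4 groups that the contrast needs. The edgeR test fits 1 dispersion per site over all 4 groups, so it takes their spread as equal. Sites are named by position on the mouse build mm9. No mm9 annotation was used, so no site was given a gene, and neither the Pggt1b locus nor Treg marker genes could be checked.

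In total 1139 sites passed the interaction test, 721 of them higher and 418 lower (edgeR quasi-likelihood test, adjusted p under 0.05, 2 libraries per group). These are 0.957% and 0.555% of the sites tested, 1.51% together. The median log2 value was 1.5 at the higher sites and -1.53 at the lower sites, against -0.04 over all tested sites. It was at least 1 in size, a 2-fold difference between the 2 genotype effects, at 550 of the higher and 316 of the lower sites. The number of calls depended on the libraries. Leaving out WT cTreg replicate 1 gave 484 calls and leaving out its replicate 2 gave 382. Omission of either WT eTreg library left a similar number, 589 for replicate 1 and 582 for replicate 2. For the Pggt1b-deficient groups, omission of cTreg replicate 1 left 857 calls, of cTreg replicate 2 578, of eTreg replicate 1 1069 and of eTreg replicate 2 2035. Of these last 2 sets, 509 and 848 sites were among the 1139. With every library thinned to the depth of the smallest, 126 sites were higher and 35 lower.

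At most of these sites the genotypes differed in eTreg cells and much less in cTreg cells. The median log2 fold change between Pggt1b-deficient and WT cells was 1.5 in eTreg and 0.00 in cTreg cells at the higher sites, and -1.53 and 0.09 at the lower sites. The genotype difference passed the test in eTreg cells, and not in cTreg cells, at 635 of the 721 higher sites (88.1%) and at 366 of the 418 lower sites (87.6%). Over all tested sites that combination made up 4.41% and 5.47%; in eTreg cells 4.66% passed as higher and 6.43% as lower without Pggt1b, and in cTreg cells 0.53% and 1.69%. In cTreg cells 3.61% of the called higher sites passed as higher and 6.1% as lower, and 3.83% and 3.11% of the called lower sites. Another 34 higher (4.72%) and 13 lower sites (3.11%) passed in cTreg cells only, in the opposite direction, against 0.722% and 0.287% of all tested sites. At 8 higher (1.11%) and 2 lower sites (0.478%) the genotype effects passed in both subsets with opposite signs, against 0.0106% and 0.00265% of all tested sites. These comparisons are parts of the interaction and use the same libraries, so they describe the called sites and do not support the calls.

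**Figure D1:**
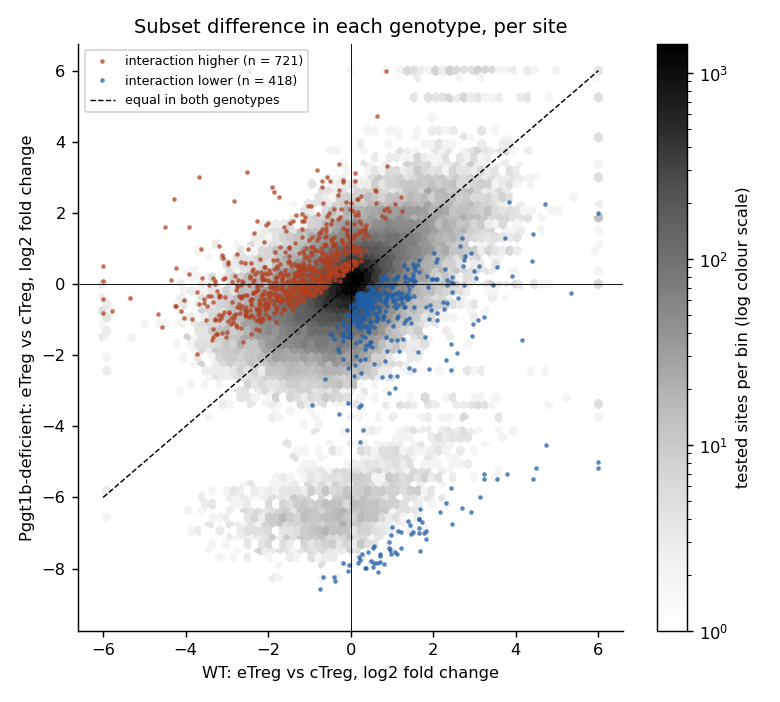
The eTreg against cTreg log2 fold change in Pggt1b-deficient cells (vertical) is plotted against that in WT cells (horizontal). Grey shading counts all 75352 tested sites on a log scale, red points are the 721 sites called higher, blue points the 418 called lower, and the dashed line marks equal differences. Higher sites lie above the line, mostly left of 0, and lower sites lie below it, mostly right of 0. The separate band at the bottom holds sites without counts in Pggt1b-deficient eTreg libraries, whose fitted values are no measured sizes, and 209 sites beyond the axes are drawn at their edges.

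The higher sites were mainly sites that closed in WT eTreg cells and did not close to the same extent without Pggt1b. Of the 721, 563 (78.1%) were less accessible in WT eTreg than in WT cTreg cells by the edgeR test, against 14.9% of all tested sites. The interaction is the difference of the 2 subset comparisons. Their shares among called sites therefore follow in part from the choice of these sites and do not support the calls. The median subset difference at the higher sites was -1.24 in WT and 0.20 in Pggt1b-deficient cells on the log2 scale. In Pggt1b-deficient cells, 196 of the 721 were more accessible in eTreg than cTreg cells and 63 less (edgeR), against 4.59% and 4.52% of all tested sites. A difference of at least 2-fold was present in WT only at 365 of them (50.6%), where the medians were -1.82 and -0.18. All 365 were less accessible in WT eTreg than in WT cTreg cells, a form of 7.24% of all tested sites. At 101 sites (14.0%) a 2-fold difference was present in Pggt1b-deficient cells only, with medians of -0.15 in WT and 1.58 in Pggt1b-deficient cells. Another 34 sites (4.72%) moved at least 2-fold in opposite directions, against 1.57% of all tested sites. At 31 sites (4.3%) both moved at least 2-fold in the same direction by unequal amounts, a smaller share than over all tested sites. The remaining 190 (26.4%) reached that size in neither genotype, against 61.7% of all tested sites. Over all tested sites, 11.4% had a 2-fold difference in WT only and 14.4% in Pggt1b-deficient cells only. The latter form was thus no more common among the higher sites than over all tested sites.

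The lower sites had a more mixed form. Of the 418, 268 (64.1%) were more accessible in WT eTreg than in WT cTreg cells by the edgeR test, against 13.8% of all tested sites. As at the higher sites, the subset shares follow in part from the choice of the sites by the same values. The median subset difference was 0.70 in WT and -0.72 in Pggt1b-deficient cells, where 173 of the 418 sites (41.4%) were called less and 7 (1.67%) more accessible in eTreg cells, against 4.52% and 4.59% of all tested sites. A 2-fold difference was present in WT only at 96 sites, in Pggt1b-deficient cells only at 111 sites and in opposite directions at 58 sites. These were 23.0%, 26.6% and 13.9% of the 418, against 11.4%, 14.4% and 1.57% of all tested sites. Counted by the edgeR calls of the subset comparisons in place of a 2-fold size, 228 differed in WT only and 134 in Pggt1b-deficient cells only. These were 54.5% and 32.1%, against 22.7% and 3.18% of all tested sites. The order of these patterns by number thus depended on the definition. The 2-fold counts of 111 and 58 rest in part on sites with few reads, because 66 of the lower sites had no count in either Pggt1b-deficient eTreg library and 47 more had 1 to 6. Among the 304 lower sites with more than 6 counts in every group, 86 differed 2-fold in WT only, 60 in Pggt1b-deficient cells only and 6 in opposite directions. Their median interaction was -1.21. Of the higher sites, 695 had more than 6 counts in every group, with a median of 1.45.

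Single libraries showed which group stood apart. At the higher sites both WT eTreg libraries lay below the other 6 libraries in 568 of 721 cases (78.8%, against 10.9% of all tested sites), and both Pggt1b-deficient eTreg libraries lay above the other 6 in 247 (34.3%, against 7.01%). At the lower sites both WT eTreg libraries lay above the other 6 in 280 of 418 cases (67.0%, against 15.9%), and both Pggt1b-deficient eTreg libraries lay below the other 6 in 262 (62.7%, against 12.4%). WT and Pggt1b-deficient cTreg libraries did not overlap at 61.2% of the higher and 59.8% of the lower sites, against 47.1% of all tested sites. These shares follow in part from the choice of the sites by the same counts.

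Summed over sites, the libraries of a group lay close together. The higher sites took 2.36% and 2.39% of the counts of the WT cTreg libraries, 1.47% and 1.47% in WT eTreg, 2.43% and 2.36% in Pggt1b-deficient cTreg and 2.85% and 2.84% in Pggt1b-deficient eTreg. WT eTreg libraries were thus the lowest, both cTreg groups overlapped, and Pggt1b-deficient eTreg libraries were the highest. The lower sites took 0.898% and 0.88% in WT cTreg, 1.29% and 1.30% in WT eTreg, 0.921% and 0.935% in Pggt1b-deficient cTreg and 0.627% and 0.711% in Pggt1b-deficient eTreg. Here the order of the eTreg groups was turned around, and the cTreg groups lay close together between them. The sites were chosen on these counts, so no test is given.

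**Figure D2:**
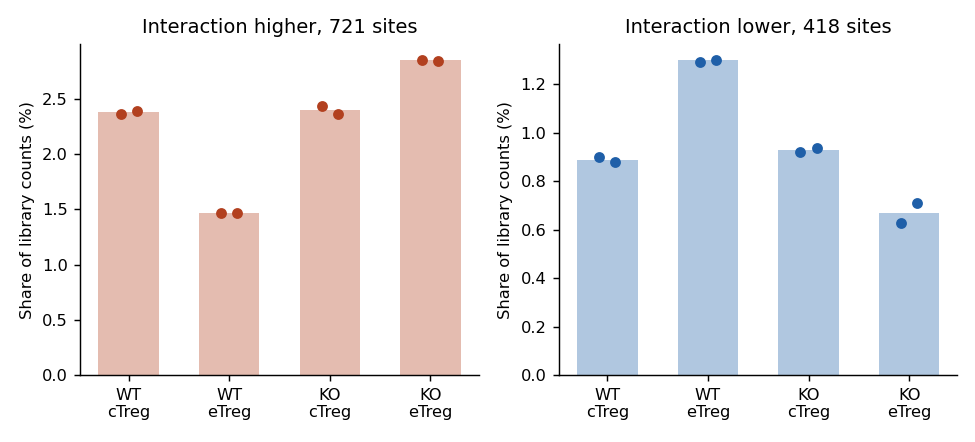
The share of each library's counts (%) that fell in the 721 higher sites (left) and the 418 lower sites (right) is shown for the 4 groups, where KO stands for Pggt1b-deficient. Points are libraries and bars are means of 2 libraries. WT eTreg libraries have 1.47% at the higher sites, below all others, and about 1.3% at the lower sites, above all others.

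The 8 sites with the smallest p in each direction, 4 higher and 4 lower, are described in every library in CPM, which is the count relative to the TMM-scaled total of its library. Site A, chr18:79454167-79455003, had 81.7 and 92.8 CPM in WT cTreg, 36.1 and 43.2 in WT eTreg, 94.6 and 90.3 in Pggt1b-deficient cTreg and 147 and 117 in Pggt1b-deficient eTreg libraries. The site was less accessible in eTreg than cTreg cells of the WT and lay highest in the Pggt1b-deficient eTreg libraries, with no overlap between eTreg groups. Its interaction was 1.66 ± 0.15 (log2 ± SE, edgeR adjusted p = 1.34e-08). Another called site near it, chr18:79500079-79500747, named after its values were seen, had 18.2 and 19.7 CPM in WT eTreg and 54.3 and 55.7 CPM in Pggt1b-deficient eTreg libraries, but both stayed under its cTreg libraries at 80.0 to 87.0 CPM.

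Site B, chr16:44358070-44358346, had 80.3 and 83.7 CPM in WT cTreg, 45.3 and 41.5 in WT eTreg, 105 and 97.7 in Pggt1b-deficient cTreg and 148 and 278 in Pggt1b-deficient eTreg libraries. The last 2 libraries lay above all others but differed widely from each other, and the interaction was 1.97 ± 0.19 (edgeR adjusted p = 1.51e-08). Site D, chr14:102055485-102055908, had 34.2 and 34.5 CPM in WT cTreg, 10.3 and 9.71 in WT eTreg, 29.1 and 29.4 in Pggt1b-deficient cTreg and 37.2 and 46.8 in Pggt1b-deficient eTreg libraries. Only the WT eTreg libraries were low there, and the interaction was 2.29 ± 0.23 (edgeR adjusted p = 4.21e-08).

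Site C, NT_166473:10447-10671, lies on an unplaced contig and had another form. It held 50.1 to 56.9 CPM in all 4 WT libraries, 52.4 and 102 in Pggt1b-deficient cTreg and 368 and 291 in Pggt1b-deficient eTreg libraries. The subsets did not differ in WT (log2 fold change -0.02) and differed by 2.12 in Pggt1b-deficient cells, and 1 of the Pggt1b-deficient cTreg libraries was also raised. Unplaced contigs are pieces of the genome without a chromosome position. Of 111 tested sites on them 10 were called higher and none lower, 9.01% against 0.945% on chromosomes. All contig sites together took 0.317% and 0.279% of the counts of the Pggt1b-deficient eTreg libraries and 0.181% to 0.204% in the other 6, and the part of this share in the result was not tested.

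Site E, chr18:42108860-42109176, had 18.4 and 18.2 CPM in WT cTreg, 52.6 and 55.7 in WT eTreg, 71.9 and 70.4 in Pggt1b-deficient cTreg and 109 and 74.7 in Pggt1b-deficient eTreg libraries. It was the only one of the 4 lower sites at which accessibility was higher without Pggt1b in both subsets. The rise was larger in cTreg cells (log2 fold change 1.96) than in eTreg cells (0.78), so the interaction was negative, -1.18 ± 0.18 (edgeR adjusted p = 9.49e-05).

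Sites F to H opened in WT eTreg cells alone. At site H, chr15:41443862-41444080, the WT eTreg libraries held 45.3 and 50.8 CPM and the other 6 libraries 9.25 to 13.2 CPM, an interaction of -1.93 ± 0.31 (edgeR adjusted p = 0.000278). Site F, chr13:97257228-97257825, had 90.6 and 96.3 CPM in WT eTreg libraries, 35.1 and 29.8 in WT cTreg, 18.8 and 24.8 in Pggt1b-deficient cTreg and 19.3 and 27.9 in Pggt1b-deficient eTreg libraries (interaction -1.44 ± 0.23, edgeR adjusted p = 0.000236). At site G, chr17:87518224-87518973, the values were 93.2 and 99.2 CPM in WT eTreg, 54.0 and 50.4 in WT cTreg, 34.7 and 40.9 in Pggt1b-deficient cTreg and 30.5 and 31.4 in Pggt1b-deficient eTreg libraries (interaction -1.17 ± 0.18, edgeR adjusted p = 0.000241). Sites F and G were also lower without Pggt1b in cTreg cells, with log2 fold changes of -0.58 and -0.47 there against -2.02 and -1.64 in eTreg cells. All 8 sites kept their calls under every alternative setting.

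**Figure D3:**
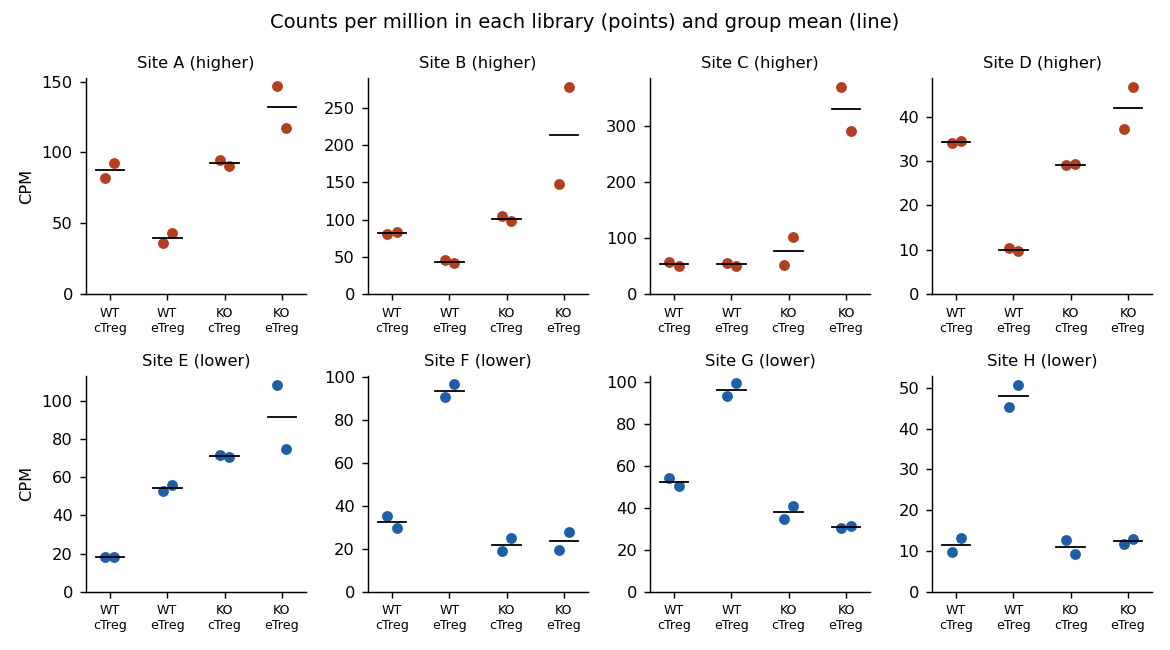
CPM (vertical, from 0) at sites A to H in the 4 groups, where KO stands for Pggt1b-deficient, points are libraries and lines are means of 2 libraries. WT eTreg libraries lie lowest at sites A, B and D and highest at sites F, G and H, site C differs from these in its high Pggt1b-deficient eTreg libraries at 368 and 291 CPM, and site E is lowest in WT cTreg libraries.

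Among called sites with a mean of at least 20 counts, the 8 largest positive interactions by fold change had 2 forms. These sites had a mean of 22.3 to 52.9 counts per library. The 42 higher calls with a mean under 20 counts had a median of 4.13 and are not named. At chr8:10980053-10980230, WT eTreg libraries held 0.371 and 0.407 CPM and the other 6 libraries 3.25 to 5.15 CPM, so the site was nearly closed in WT eTreg cells alone (interaction 3.77 ± 0.75, edgeR adjusted p = 0.00406). A like pattern was seen at chr7:125403443-125403563, with 0.185 and 0.271 CPM in WT eTreg and 6.28 and 3.56 CPM in Pggt1b-deficient eTreg libraries. With 6 and 20 counts behind these values, the ratio was 21.7 (95% interval 5.59 to 123, counting error only), against 1.46 between the genotypes in cTreg cells (1.06 to 2.04). The call was lost without Pggt1b-deficient eTreg replicate 1 (edgeR adjusted p = 0.0655, 0.00111 to 0.105 over all alternatives).

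chr2:19237710-19237808 and chr17:52258780-52258870 had 5 and 6 counts in WT eTreg libraries and 12 and 12 in Pggt1b-deficient eTreg libraries. Their ratios were 15.6 (2.78 to 80.5) and 13.0 (2.78 to 80.5). The first lost its call without WT cTreg replicate 1 or 2, WT eTreg replicate 1, Pggt1b-deficient cTreg replicate 2 or Pggt1b-deficient eTreg replicate 2 (edgeR adjusted p 0.0532, 0.0934, 0.105, 0.0674 and 0.0867, and 0.0194 to 0.105 over all alternatives). The second lost it without WT cTreg replicate 2, WT eTreg replicate 2 or Pggt1b-deficient eTreg replicate 2 (edgeR adjusted p 0.087, 0.126 and 0.15, and 0.00991 to 0.15 over all alternatives). chr13:28882207-28882425 headed the list of named sites at 4.49 ± 1.08 (edgeR adjusted p = 0.0214), but its Pggt1b-deficient eTreg libraries held 0 and 8.30 CPM. Without the second of these its fitted value turned to -3.69 (edgeR adjusted p = 0.731), and without WT cTreg replicate 1 or 2 or WT eTreg replicate 2 the adjusted p was 0.0615, 0.091 and 0.132 (0.00017 to 0.731 over all alternatives).

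The other 3 of these sites were more accessible in Pggt1b-deficient eTreg than in all other libraries or in most. chr12:52988996-52989062, a site of 66 bp, held 37.7 and 25.5 CPM there and 2.58 to 5.07 CPM in the other 6 libraries (interaction 3.61 ± 0.45, edgeR adjusted p = 3.39e-06), and it was called under all 17 alternatives. chr3:141914013-141914098 held 8.97 and 7.11 CPM in Pggt1b-deficient eTreg, 2.36 to 3.80 in both cTreg groups and 0.742 and 0.543 in WT eTreg libraries (3.78 ± 0.67, edgeR adjusted p = 0.0012). At chr2:93612372-93612489 the Pggt1b-deficient eTreg libraries held 39.0 and 7.70 CPM, and the second lay below 1 library each of WT cTreg (8.71) and Pggt1b-deficient cTreg (8.14). Its interaction of 3.71 ± 0.56 (edgeR adjusted p = 0.000143) became 2.03 without the first of them (edgeR adjusted p = 0.104, 6.15e-08 to 0.104 over all alternatives).

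Among called sites with a mean of at least 20 counts, all 8 with the largest negative fold changes had no count in either Pggt1b-deficient eTreg library. Their fitted values, near -9 on the log2 scale, depend on the model and are not sizes. Set against 6 counts over the group, equal to 3 read pairs, as a floor for an empty group, chr2:136357765-136358070 was at least 8.03-fold lower in eTreg cells without Pggt1b than in WT eTreg libraries, which held 7.60 and 15.8 CPM. In cTreg cells it held 1.77 and 2.53 CPM in WT and 1.12 and 1.93 CPM in Pggt1b-deficient libraries. The edgeR adjusted p of its interaction was 0.00503, and the site was called in 15 of the 16 alternatives that tested it.

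The other 7 were at least 2.53-fold to 5.09-fold lower in eTreg cells. chr6:65415536-65415704 (at least 5.09-fold), chr10:84389802-84389921 (4.73-fold), chr8:97303280-97303365 (4.58-fold), chr10:45355139-45355230 (4.45-fold) and chr16:45093478-45093625 (4.02-fold) held 5 to 27 counts over each cTreg group, so the genotype ratio in cTreg cells was poorly known. It was 1.55 with a 95% interval of 0.289 to 8.32 at the first of them. chr5:28396703-28396745 (3.3-fold) and chr16:24593793-24593890 (2.53-fold) had 30 to 41 counts over each cTreg group and kept their calls under all 15 alternatives that tested them.

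Calls among these sites rested on single libraries in 5 cases. chr6:65415536-65415704 had an edgeR adjusted p of 0.0803, 0.102, 0.132 and 0.052 without WT cTreg replicate 2, WT eTreg replicate 2, Pggt1b-deficient cTreg replicate 2 and Pggt1b-deficient eTreg replicate 1 (0.0135 to 0.132 over all alternatives). For chr8:97303280-97303365 it was 0.053, 0.144 and 0.0508 without WT cTreg replicate 1, Pggt1b-deficient cTreg replicate 2 and Pggt1b-deficient eTreg replicate 1 (0.00669 to 0.144). chr16:45093478-45093625 lost its call without Pggt1b-deficient cTreg replicate 2 (0.0736, range 0.00315 to 0.224) and chr10:84389802-84389921 without Pggt1b-deficient cTreg replicate 1 (0.0554, range 0.00523 to 0.262). chr10:45355139-45355230 lost it without WT cTreg replicate 1 or 2 (0.0699 and 0.131), WT eTreg replicate 1 or 2 (0.0717 and 0.122), Pggt1b-deficient cTreg replicate 2 (0.377) or Pggt1b-deficient eTreg replicate 1 (0.0832), over a range of 0.0305 to 0.377.

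Read by locus, the calls were spread over the genome. In tiles of 200 kb, 918 of the 7154 tiles with tested sites held at least 1 call, 25 held 3 or more higher sites and 3 held 3 or more lower sites. Both directions met in 37 tiles. Of 70 pairs of neighbouring called sites within 10 kb, 65 had the same direction (92.9%), 57 of them higher and 8 lower, whereas neighbouring tested sites at that distance shared the sign of the interaction in 55.5% of 50170 pairs. Near sites can be parts of 1 open region and are not independent.

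The window with most higher calls was 76.2 to 76.4 Mb of chromosome 16, with 7 of 73 tested sites higher, none lower and a median of 0.28. Its called sites differed in form. chr16:76323767-76324157 was low in WT eTreg libraries alone, at 10.1 and 9.78 CPM against 22.2 to 40.4 CPM in the other 6 (interaction 1.79 ± 0.27, edgeR adjusted p = 9.49e-05). chr16:76337185-76337576, the called site of the window with the largest mean count, held 55.3 to 72.7 CPM in the 4 WT libraries, 58.3 and 46.2 in Pggt1b-deficient eTreg and only 27.6 and 27.9 in Pggt1b-deficient cTreg libraries. There the genotype difference was in cTreg cells (log2 fold change -1.23 against -0.28 in eTreg cells), and the interaction was 0.94 ± 0.20 (edgeR adjusted p = 0.00758). It lost its call without WT cTreg replicate 2, WT eTreg replicate 1 or Pggt1b-deficient eTreg replicate 1 (edgeR adjusted p 0.107, 0.0669 and 0.112, range 0.00227 to 0.112). In the same window, chr16:76313103-76313280 was also lowest in Pggt1b-deficient cTreg libraries, at 4.49 and 3.86 CPM against 5.75 to 13.2 CPM in the other 6. There the subsets differed in opposite directions, by a log2 fold change of -0.95 in WT and 1.05 in Pggt1b-deficient cells.

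At 80.0 to 80.2 Mb of chromosome 9, 6 of 25 tested sites were called higher and none lower, and 21 of the 25 had a positive value (median 0.85). In WT, 16 of the 25 were less accessible in eTreg than cTreg cells by the edgeR test, against 14.9% of all tested sites. In Pggt1b-deficient cells none was, against 4.52% of all tested sites, a share at which few of 25 sites would be called. The window was picked for its higher calls, so its signs, median and WT share follow in part from that choice. Summed over the 6 called sites, accessibility was 182 and 215 CPM in WT cTreg, 85.4 and 88.8 in WT eTreg, 203 and 198 in Pggt1b-deficient cTreg and 198 and 165 in Pggt1b-deficient eTreg libraries, so 1 library of the last group lay within the range of the cTreg libraries and 1 below it, and both lay above WT eTreg. The called site with the largest mean count, chr9:80165758-80166230, had 24.8 and 26.7 CPM in WT eTreg and 63.7 and 53.3 CPM in Pggt1b-deficient eTreg libraries, against 70.5 to 82.2 CPM in cTreg libraries (interaction 1.18 ± 0.18, edgeR adjusted p = 0.000102).

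The third window, 65.8 to 66.0 Mb of chromosome 7, had 5 of 48 sites higher, none lower and a median of 0.85. Of the 48, 28 were less accessible in eTreg than cTreg cells in WT, against 14.9% of all tested sites, and 6 in Pggt1b-deficient cells, against 4.52%. This window too was picked for its higher calls, and its median and WT share follow in part from that choice. The called site chr7:65873349-65873754 held 6.49 and 5.84 CPM in WT eTreg libraries and 20.2 to 28.9 CPM in the other 6 (interaction 1.91 ± 0.29, edgeR adjusted p = 0.000145). Fewer calls in Pggt1b-deficient cells do not on their own show a smaller difference, because these libraries were shallower.

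Lower calls were fewer, 418 against 721, and the 3 leading windows held 3 each. Whether they gathered less than their number allows was not tested. At 62.0 to 62.2 Mb of chromosome 15, all 18 tested sites had a negative interaction, with a median of -1.17, and 11 were more accessible in eTreg than cTreg cells in WT, against 13.8% of all tested sites. None was in Pggt1b-deficient cells, against 4.59% of all tested sites, a share at which few of 18 sites would be called. The lack of calls in these shallower libraries does not on its own show a smaller difference. The window was picked for its lower calls, so its signs, median and WT share follow in part from that choice. Of its called sites, chr15:62041576-62041753 had no count over the Pggt1b-deficient eTreg libraries and chr15:62097194-62097407 had 6. The called site of the window with the largest mean count, chr15:62021190-62021625, had 39.3 and 40.1 CPM in WT eTreg and 19.7 to 25.8 CPM in the other 6 libraries (interaction -1.07 ± 0.23, edgeR adjusted p = 0.00913). That call was lost without WT cTreg replicate 1 (0.066) or Pggt1b-deficient eTreg replicate 1 (0.0624, range over alternatives 0.00506 to 0.066).

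The window at 96.0 to 96.2 Mb of chromosome 16 held 24 tested sites, of which 3 were lower. chr16:96019669-96020588 had 88.1 and 77.9 CPM in WT eTreg, 49.2 and 51.9 in WT cTreg, 36.1 and 41.7 in Pggt1b-deficient cTreg and 26.9 and 33.2 in Pggt1b-deficient eTreg libraries (interaction -1.10 ± 0.19, edgeR adjusted p = 0.00104). Another window on chromosome 16, from 24.4 to 24.6 Mb, held 3 lower sites among 15, although the median of all 15 was 0.59. The one with the largest mean count, chr16:24539140-24539386, held 11.2 and 7.11 CPM in Pggt1b-deficient eTreg and 21.0 to 24.2 CPM in the other 6 libraries (interaction -1.17 ± 0.30, edgeR adjusted p = 0.0357). It was called in 7 of 17 alternatives and, among those that left out a library, only without Pggt1b-deficient eTreg replicate 1. Its edgeR adjusted p was 0.106 and 0.131 when WT cTreg replicate 1 or 2 was omitted, and 0.0625 and 0.123 when WT eTreg replicate 1 or 2 was. It was 0.084 and 0.0644 on omission of replicate 1 or 2 of Pggt1b-deficient cTreg, and 0.111 on omission of replicate 2 of Pggt1b-deficient eTreg (0.0249 to 0.247 over all alternatives).

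**Figure D4:**
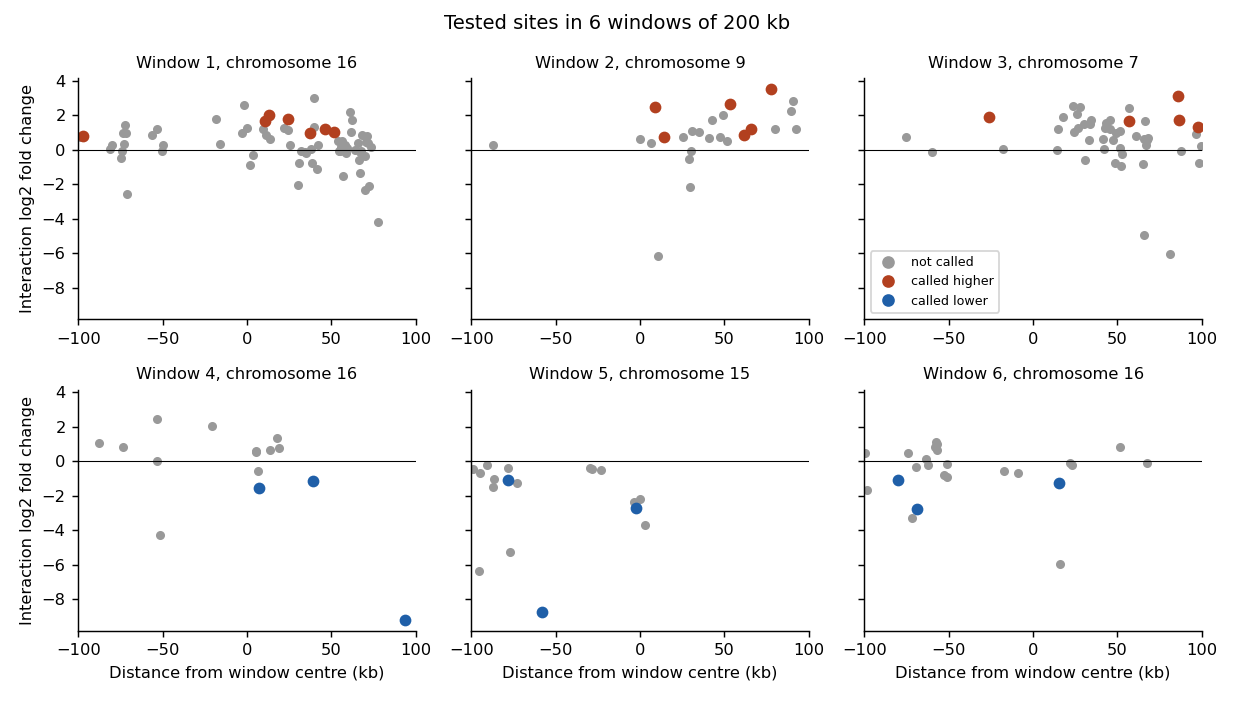
Interaction log2 fold change (vertical) of each tested site against its distance from the window centre (kb) in 6 windows of 200 kb. Windows 1 to 3 hold the most higher calls (7, 6 and 5, red) and windows 4 to 6 the most lower calls (3 each, blue), grey points were not called, and points near -9 had no count in Pggt1b-deficient eTreg libraries.

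Called sites were wider and stronger than tested sites in general. The median width was 241 bp at the higher and 277 bp at the lower sites, against 112 bp over all tested sites, and the median of the mean count per library was 131 and 144 against 36. The share called rose with coverage from 0.172% higher and 0.102% lower at sites with a mean under 20 counts to 2.29% and 1.42% at 100 to 500 counts, and was 2.1% and 0.939% at 500 or more. The median standard error of the log2 interaction was 1.19 under 20 counts and 0.27 at 100 to 500 counts, so weakly covered sites could be called only at large values. Among sites with 500 or more counts, 85 were higher with a median of 0.63 and 38 lower with a median of -0.63. On the chromosomes the share of higher calls ran from 0.397% on chromosome 19 to 1.36% on chromosome 16, and that of lower calls from 0.17% on chromosome 19 to 0.915% on chromosome 18.

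Part of the list was common to all ways of fitting. Of the 1139 sites, 205 were called whichever single library was left out, 153 higher and 52 lower. DESeq2 and limma-voom with group weights both called 598 of them, 480 higher and 118 lower, and 92 sites, 80 higher and 12 lower, were called under all 17 alternatives. Of these 92, 48 had a 2-fold subset difference in WT only (against 11.4% of all tested sites) and 17 in Pggt1b-deficient cells only (against 14.4%). The 92 sites were chosen on the same values, so these counts only describe them. One of them, named after its values were seen, was chr16:49792573-49792985, where the WT eTreg libraries held 3.99 and 3.80 CPM and the other 6 held 19.3 to 25.7 CPM (interaction 2.73 ± 0.31, edgeR adjusted p = 4.91e-07).

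**Figure D5:**
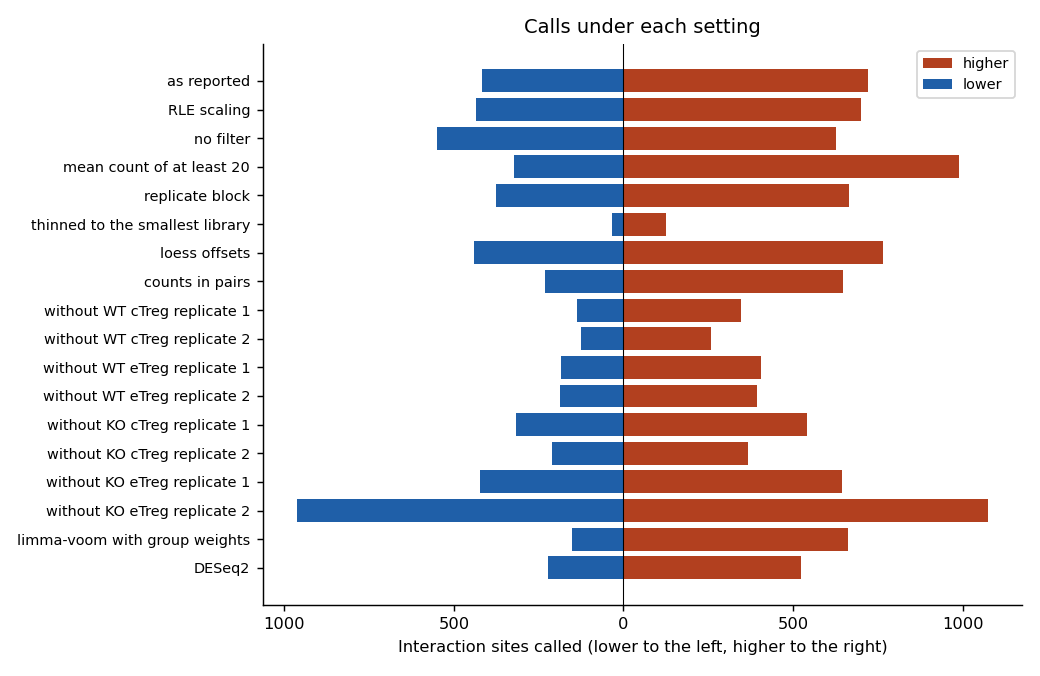
Sites called higher (red, to the right) and lower (blue, to the left) in the fit reported here and under each of 17 alternatives, where KO stands for Pggt1b-deficient. Calls run from 126 higher and 35 lower sites with libraries thinned to the smallest to 1074 and 961 without Pggt1b-deficient eTreg replicate 2, and higher calls outnumber lower calls in every setting.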

How the data were processed

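ATAC-seq libraries from 8 samples were compared, with groups and replicate numbers taken from the sample titles. The authors deposited raw whole-number counts per site in 1 table. Per the submitters' processing notes the tools were MACS2 2.1.1, Trimmomatic 0.36, bedtools, SAMtools and Picard 2.9.4, and the build was mm9. The sources used here give neither the aligner, the shift of read ends and the peak threshold nor the libraries on which sites were called. Whether starts are numbered from 0 is not stated, an uncertainty of 1 base.

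Counts were fitted in R 4.3.3 with edgeR 4.0.16: filterByExpr, TMM scaling, 1 mean per group over 8 libraries, and a two-sided quasi-likelihood test with Benjamini-Hochberg adjustment over 75352 sites. Each standard error is the size of the log2 fold change divided by the root of the F statistic. limma 3.58.1 and DESeq2 1.42.0 served as alternatives. The limma-voom group weights were 0.964 in Pggt1b-deficient eTreg and 0.978 to 1.05 in the other groups, so they differed little between groups. An exact test on 2 libraries per group cannot reach the threshold, so single values carry none. Counts come largely in pairs, so intervals (95%, Clopper-Pearson) took every 2 counts as 1 observation; they and the floor of 6 counts over a group cover counting error only.

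Named sites had a mean of at least 20 counts and were the 8 largest fold changes and the 4 smallest p in each direction, and the called site of largest mean count in each of the 3 windows of 200 kb with most calls in each direction. Members and rules were chosen with earlier results of these data known. Gene lists and marker lists were not run for want of an mm9 annotation, and no sequence is shown.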

Additional observations from a re-analysis of the deposited data

How the results depend on the processing

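The 1139 calls (721 higher, 418 lower) became 161 (126 and 35) with libraries thinned to the smallest, 747 (524 and 223) with DESeq2, 815 (663 and 152) with limma-voom and 878 (647 and 231) with every 2 counts as 1. Leaving out 1 library gave 382 to 2035 calls, 258 to 1074 higher and 124 to 961 lower. Without a filter there were 625 higher and 551 lower calls, with a mean of at least 20 counts 989 and 323, and with DESeq2's size factors (RLE) 699 and 436. Higher calls made up 63.3% as reported, 53.1% without a filter, 75.4% at a mean of at least 20 counts, 81.3% with limma-voom and 78.3% when thinned. With loess offsets the count was 1206. With the replicate number as a block it was 1041 (664 and 377), of which 1023 were among the 1139. The correlation of the deviations of same-numbered libraries from their group means was -0.0164 to 0.057 over 6 pairs of groups. Counting error at sites with few counts lowers such a correlation, so it cannot tell whether the numbers pair the libraries. No named site lost its call under the block. By calls of the subset comparisons, 228 rather than 96 lower sites differed in WT only, where the shares of all tested sites were 22.7% and 11.4%. With a mean of at least 20 counts the higher sites took 2.83% in place of 2.85% of Pggt1b-deficient eTreg counts, and the lower sites 1.29% in place of 1.30% of WT eTreg counts. Of the 490 values of 30 named sites under alternatives, 430 kept their call, 59 lost it and 1 turned, chr13:28882207-28882425 at -3.69 without Pggt1b-deficient eTreg replicate 2, which held its only counts in that group (-3.69 to 8.35 over the 8 fits that left out a library). DESeq2 gave 13 of the 30 no adjusted p. The causes of the other changes were not tested, except that fewer sites or libraries entered where counts were filtered, thinned or left out. Chosen after seeing the data, the requirement of more than 6 counts in every group left 695 and 304 calls, and leaving out unplaced contigs 711 and 418. Assignment to genes was not run. Depth limits the lower direction: 66 lower sites are bounded only by an empty group, and setting them at the floor changed the median from -1.53 to -1.39.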

Other observations

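Of the 10 sites called higher on unplaced contigs, 4 lay on NT_166476 and were all 4 tested sites of that contig. NT_166476:23005-23272 had 35.2 to 40.4 CPM in the 4 WT libraries, 35.7 and 82.8 CPM in Pggt1b-deficient cTreg and 330 and 233 CPM in Pggt1b-deficient eTreg libraries (interaction 2.28 ± 0.25, edgeR adjusted p = 2.66e-07). NT_166476:22301-22611 had 39.5 to 44.7, 41.4 and 78.7, and 266 and 219.9 CPM in the same order. In both, Pggt1b-deficient cTreg replicate 2 was raised as well. These sites were singled out after their values were seen.

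Adjacent sites could part. chr2:112347778-112347939 had 57.9 and 305 CPM in the Pggt1b-deficient eTreg libraries, while chr2:112347100-112347476, about 0.3 kb away, had 25.6 and 32.6 CPM in the same libraries. At the first site replicate 1 lay only a little above the cTreg libraries, at 42.8 to 50.9 CPM, so the difference rested mainly on replicate 2. Both sites were called higher, at 3.17 ± 0.39 and 1.96 ± 0.27 (edgeR adjusted p = 2.72e-06 and 1.94e-05). Both were low in WT eTreg, at 14.8 and 17.9 CPM and at 8.34 and 7.40 CPM. They were also chosen after their values were seen.

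One of the most accessible called sites had a small interaction. chr4:16089736-16091598, a site of 1862 bp with a mean of 3899 counts, had 381 to 452 CPM in WT libraries, 480 and 491 CPM in Pggt1b-deficient cTreg and 763 and 702 CPM in Pggt1b-deficient eTreg libraries (interaction 0.73 ± 0.09, edgeR adjusted p = 7.36e-06). It was chosen for its high count.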
